A study of Mus musculus with 55 samples.

Results

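The chromatin states named S, T and U in a segmentation of wild-type mouse islet chromatin are described here through their segments and the genes that start in them. The study's own ChIP-seq islets from wild type were labelled 8 weeks or older, all under 25 weeks. The letters thus do not describe chromatin of the knockout. A segment is a run of 200 bp bins that share 1 state letter. The members are all segments with the letter S, T or U, 115114 of 1653154 segments (6.96%), and they covered 338.6 Mb, 13.8% of the segmented autosomes. S had 71559 segments, T 36953 and U 6602. Transcription start sites in them were taken as the 5′ ends of protein-coding, long intergenic and antisense genes on the 19 autosomes: 1837 of 28877 genes with a state (6.36%), of which 417 started in S, 1216 in T and 204 in U. Whether these genes stayed silent was read from RNA-seq counts of whole islets of Langerhans from C57B6/J mice: wild type (3 libraries at 8 weeks of age and 3 at 25 weeks), Eed heterozygous (3 and 2) and Eed -/- (βEedKO, 3 and 2). Eed is a core subunit of Polycomb repressive complex 2 (PRC2), and in βEedKO mice it is removed by a Cre transgene under the rat insulin promoter, thus in β cells, while α, δ and other islet cells keep the gene. Animals of the study's own sequencing were male, while some outside ChIP-seq data in the segmentation came from female mice. Each library at 25 weeks in βEedKO came from pooled animals. The study's isolation method kept islets in culture medium with glucose, and its RNA method lysed purified islets directly. Whether these libraries came from cultured islets is not stated. In such whole-islet RNA, fewer cells of a type and less RNA per cell cannot be told apart.

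Heterochromatin of this kind carries trimethylation of histone H3 at lysine 9 (H3K9me3) and methylated DNA, laid down by SETDB1 and SUV39H enzymes and DNA methyltransferases. It is best known for holding repeats, transposon remnants and large clustered gene families silent. PRC2 writes a different mark, H3K27me3, over developmental genes. The study annotated S and T as heterochromatin and U as a mix of PRC2 and H3K9 marks, and named L, M, N and O as Polycomb states. The deposited list holds 24 state letters and no level of any mark, so these names could not be checked against the marks. It has fewer letters than the published model has states, and its letter for Vmn1r115 differs from the published legend, so a letter in the list may not be the state of that name.

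Start windows of 7 members show the range of sequence found under these letters, and were picked for the genes the results return to. Each runs from 250 bases before to 50 after the RefSeq start (GRCm38.p6) and reads 5′ to 3′ along the gene. Capitals mark CpG dinucleotides, the sites of DNA methylation, searched as the letters CG, which read the same on both strands. Vmn1r58 (chr7:5413096-5413395, minus strand, state T) and Vmn1r135 (chr7:21832101-21832400, plus strand, state U) encode pheromone receptors, and Tas2r104 (chr6:131685695-131685994, minus strand, state T) a bitter taste receptor. Prss3 (chr6:41377564-41377863, minus strand, state T) encodes a trypsinogen, Sp100 (chr1:85649738-85650037, plus strand, state U) a nuclear body protein induced by interferon, Zfp979 (chr4:147642459-147642758, minus strand, state U) a zinc finger protein, and Asz1 (chr6:18109012-18109311, minus strand, state S) a germ cell protein of the piRNA pathway.
Vmn1r58: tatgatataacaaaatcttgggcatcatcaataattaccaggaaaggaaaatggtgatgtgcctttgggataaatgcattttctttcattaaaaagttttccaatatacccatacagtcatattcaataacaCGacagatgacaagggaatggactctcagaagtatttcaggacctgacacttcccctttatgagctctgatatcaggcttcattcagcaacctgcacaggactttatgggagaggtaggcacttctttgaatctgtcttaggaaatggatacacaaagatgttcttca
Vmn1r135: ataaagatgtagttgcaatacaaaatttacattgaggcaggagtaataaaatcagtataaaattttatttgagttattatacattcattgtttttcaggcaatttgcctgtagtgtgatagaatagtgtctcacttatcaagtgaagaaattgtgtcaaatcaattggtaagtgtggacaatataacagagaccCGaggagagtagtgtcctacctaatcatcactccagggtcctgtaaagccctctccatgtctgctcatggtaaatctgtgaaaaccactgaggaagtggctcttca
Tas2r104: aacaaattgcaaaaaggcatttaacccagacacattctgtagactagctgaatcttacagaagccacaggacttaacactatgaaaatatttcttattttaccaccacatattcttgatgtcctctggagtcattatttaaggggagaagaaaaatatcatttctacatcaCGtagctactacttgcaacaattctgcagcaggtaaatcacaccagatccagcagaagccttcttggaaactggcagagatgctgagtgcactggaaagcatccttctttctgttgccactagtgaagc
Prss3: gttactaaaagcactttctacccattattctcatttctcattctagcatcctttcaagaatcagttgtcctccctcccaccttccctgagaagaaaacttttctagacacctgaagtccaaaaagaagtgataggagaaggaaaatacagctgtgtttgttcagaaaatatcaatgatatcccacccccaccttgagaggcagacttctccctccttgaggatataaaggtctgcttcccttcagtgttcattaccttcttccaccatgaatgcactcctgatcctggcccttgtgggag
Sp100: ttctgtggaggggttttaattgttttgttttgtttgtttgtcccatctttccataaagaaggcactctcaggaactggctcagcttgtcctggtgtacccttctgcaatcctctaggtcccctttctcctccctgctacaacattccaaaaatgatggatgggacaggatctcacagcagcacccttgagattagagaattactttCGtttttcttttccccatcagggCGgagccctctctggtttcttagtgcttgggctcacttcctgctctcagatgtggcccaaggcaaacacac
Zfp979: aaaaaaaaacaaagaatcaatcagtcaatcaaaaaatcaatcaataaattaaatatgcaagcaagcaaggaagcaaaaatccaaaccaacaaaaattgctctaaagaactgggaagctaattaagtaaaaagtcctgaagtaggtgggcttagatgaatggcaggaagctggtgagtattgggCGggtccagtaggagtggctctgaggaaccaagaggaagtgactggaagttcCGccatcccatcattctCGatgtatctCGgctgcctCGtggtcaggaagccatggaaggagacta
Asz1: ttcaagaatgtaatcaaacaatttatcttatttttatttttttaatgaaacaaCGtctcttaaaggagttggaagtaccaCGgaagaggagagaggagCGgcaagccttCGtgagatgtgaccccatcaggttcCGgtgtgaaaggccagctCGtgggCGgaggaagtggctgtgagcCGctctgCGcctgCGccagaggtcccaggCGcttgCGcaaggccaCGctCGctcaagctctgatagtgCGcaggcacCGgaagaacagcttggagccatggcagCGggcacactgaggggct
The Prss3 window held 0 CpG, those of Vmn1r58, Vmn1r135 and Tas2r104 1 each, Sp100 2, Zfp979 5 and Asz1 17. The Asz1 window thus stood apart from the other 6. RefSeq windows were found by symbol for 1137 of the 1837 member genes (61.9%). Over all RefSeq windows that start in T, 25.0% of 1168 held no CpG, against 11.5% of 390 in S, 10.3% of 234 in U and 5.25% of 31396 on all autosomes. In the active start site state A it was 0.0284% of 7045.

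Segments of T were the widest and those of U the narrowest at the median. The median width was 1400 bp in S (quartiles 800 and 2800), 2600 bp in T (1200 and 5400) and 800 bp in U (400 and 1400). U had the same median as state V (800 bp), and T the same as the Polycomb state N (2600 bp). The mean was 2142.3 bp in S, 4689.9 bp in T and 1824.1 bp in U. Segments of 10 kb or more held 45.1% of the T coverage, 31.9% of the U coverage and 3.53% of the S coverage. The longest T segment measured 143200 bp (chromosome 12 from 114798201 to 114941400, in the immunoglobulin heavy chain variable region), the longest U segment 122200 bp (chromosome 7 from 15176601 to 15298800) and the longest S segment 26400 bp (chromosome 2 from 76733801 to 76760200). These are widths in 1 segmentation made from averaged replicates, so there is no spread between animals to set them against.

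**Figure D1:**
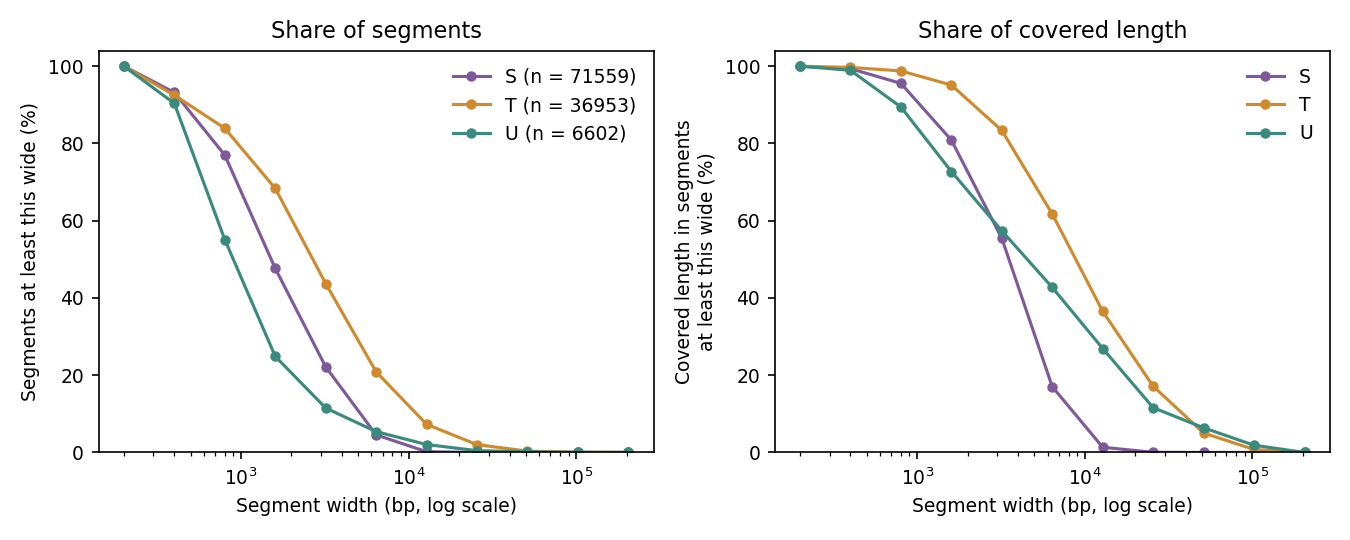
Share of segments (left) and share of covered length (right) in segments at least as wide as the value on the x axis (bp, log scale), for S, T and U. At 12800 bp the right panel stands at 36.5% for T, 26.9% for U and 1.34% for S.

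Most U segments bordered S or T. Of the flanks of U segments, 40.1% touched S, 35.4% touched T and 9.35% touched a gap without any state. S segments were flanked mostly by P (36.4%) and Q (24.9%), and T segments by W (19.7%), S (19.5%), R (18.1%) and P (17.4%). The list left 1787 gaps of 2.31 Mb in all between segments, and 38.5% of them bordered U. Joined across letters and over breaks of up to 1000 bp, the 115114 segments became 74074 domains with a median of 2200 bp, and 201 domains reached 100 kb. The longest was 2062400 bp (chromosome 7 from 21670201 to 23732600, 55.2% U and 41.3% T) and held 49 gene starts, 25 of them type 1 vomeronasal receptors. The next, 1086200 bp (chromosome 7 from 20533801 to 21620000, 78.5% U), held 24 of these receptors among 30 starts. The third, 997400 bp (chromosome 7 from 10925201 to 11922600, 92.8% T), held 11 starts, with the Zscan4 genes of the early embryo among them. Chromosome 7 had the highest share of its length in S, T and U (25.4%) and chromosome 11 the lowest (9.12%).

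The 3 states differed in the DNA under them. Repeats, the soft-masked bases of the reference, made up 79.85% of S, 57.07% of T and 59.81% of U, against 33.47% of all segmented sequence. U was the richest in CpG, with 13.35 per kb against 9.9 in S, 5.41 in T and 8.51 in all segmented sequence, and T the poorest. At the start sites themselves the windows of 300 bases in S were mostly repeat in 55.6% of cases, against 9.7% in T and 11.3% in U. The windows in T had a median GC content of 40.3%, against 46.7% in S, 43.7% in U and 52.7% over all genes.

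Some gene families had many of their genes under S, T and U. Receptors for odours and pheromones alone made up 597 of the 1837 (32.5%): 373 of 1128 autosomal olfactory receptors, 135 of 208 type 1 and 89 of 121 type 2 vomeronasal receptors. T held 366, 90 and 88 of these. U held no olfactory receptor but 45 type 1 vomeronasal receptors. Secretoglobins, small secreted proteins that include the androgen-binding proteins of saliva, had 28 of 34 genes here, all on chromosome 7, and killer cell lectin receptors 12 of 26, all on chromosome 6. Defensins, antimicrobial peptides of the gut and skin, had 26 of 64. Major urinary proteins had 13 of 22, bitter taste receptors 17 of 35 and cytochrome P450 enzymes 23 of 101. Of 15 Mas-related receptors 14 started here, of 15 exocrine gland-secreted peptides 12 and of 8 oocyte homeobox genes all 8, but these 3 families were added after the members had been seen. Zinc finger genes, with 29 of 426 (6.81%), had a share close to the 6.36% of all genes, and 14 of these 29 started in U. Unnamed gene models supplied another 781 members, 8.75% of the 8922 such models. Of the 781, 320 were in S, where they made up most of the 417 starts.

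**Figure D2:**
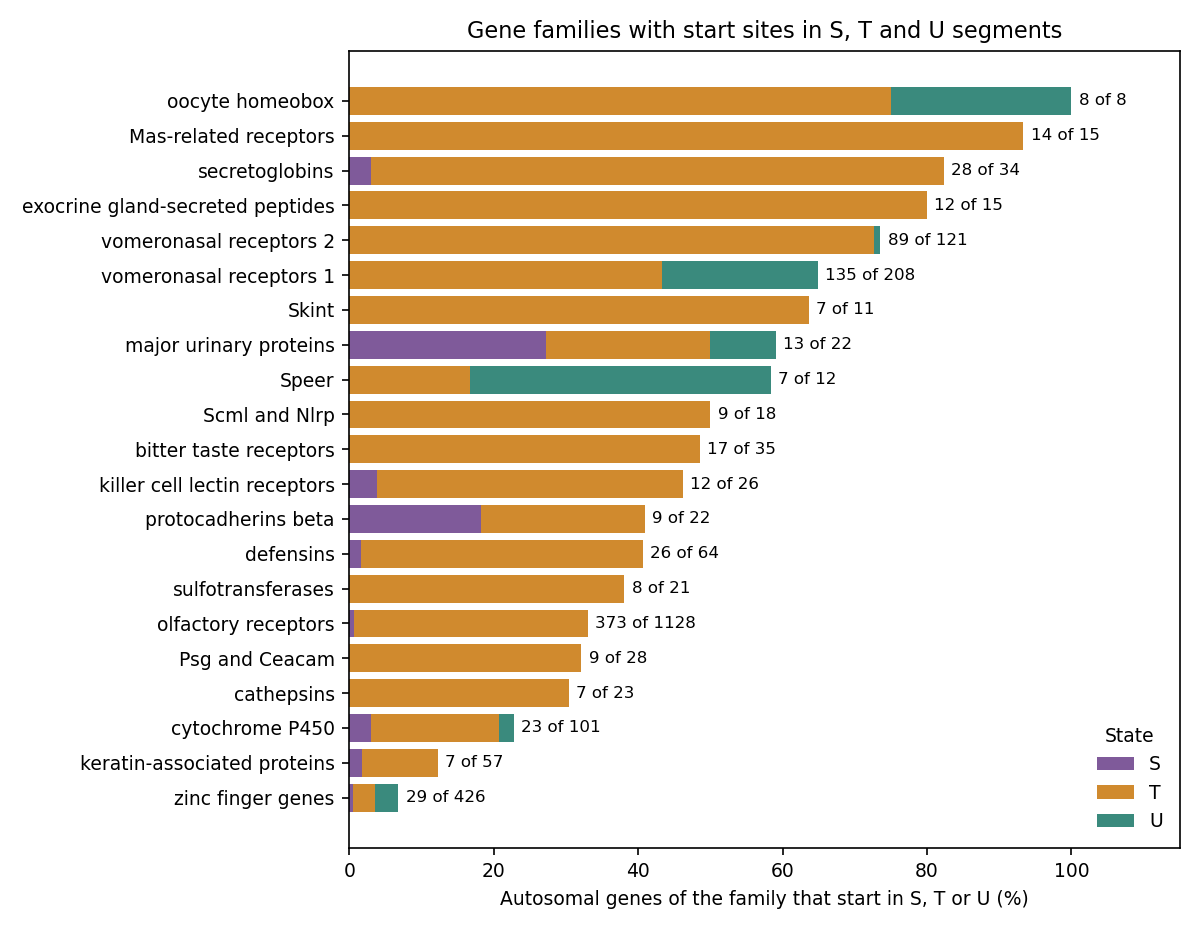
Share of the autosomal genes of each family that start in S, T or U (percent), with the number of genes beside each bar and colours for the 3 states, for families with at least 7 such genes. T is the largest part of most bars, while U has 5 of 7 Speer genes, 14 of 29 zinc finger genes and 45 of 135 type 1 vomeronasal receptors.

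The gene body mostly carried the letter of the start in T (1058 of 1216 genes, 87.0%) and in U (170 of 204, 83.3%), but in S only for 143 of 417 (34.3%). With all gene types included, 5664 of 51117 starts lay in S, T or U (11.1%). Pseudogenes led these, with 1710 processed and 855 unprocessed ones, the latter 47.8% of their kind. Immunoglobulin V gene segments, the exons that B cells recombine, had 154 of 218 here (70.6%): 106 of 113 Ighv segments on chromosome 12 and 47 of 100 Igkv segments on chromosome 6. Of 262 small nucleolar RNA genes on chromosome 7, 195 lay in these states, 141 in T and 52 in U.

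How well a gene can be counted differed by state, and this stands beside every statement on silence. The reads were 2 × 50 bp, so each transcript was searched for 50-base words found nowhere else in the genome. The median share of such unique words was 92.0% in S, 88.0% in T and 17.4% in U, against 100.0% over all genes. In U, 31 of 187 counted genes (16.6%) had at least 50% unique words, against 77.5% in S and 78.4% in T. A read from a gene with near-identical copies may be lost or credited to a copy.

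Of the 1837 genes, 1543 were in the count table (258 in S, 1098 in T, 187 in U), and the other 294 were not matched by identifier. Most had no read at all. In T 880 of 1098 (80.1%) had 0 reads in all 16 libraries, in U 119 of 187 (63.6%) and in S 96 of 258 (37.2%), against 34.5% in the Polycomb state N, 7.26% in M and 15.7% of all genes with a state. Among the 31 U genes with at least 50% unique words, 5 (16.1%) had no read. In T the share was 79.9% among such genes. The part of shared sequence in the lack of reads in U was not tested. The libraries held from 4645393 to 22925359 counted reads, and 0 reads allowed up to 0.121 to 0.654 CPM (reads of a gene scaled to library size, with TMM factors).

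In wild-type islets at 8 weeks 13.2% of the S genes, 1.64% of the T genes and 4.81% of the U genes reached 1 CPM on the group mean. In βEedKO islets of that age the shares were 15.5%, 2.09% and 5.35%. At 25 weeks they were 15.9%, 1.82% and 5.35% in wild type and 19.0%, 3.83% and 5.88% in βEedKO. Over genes of all states the share was 51.6% in wild type and 56.7% in βEedKO at 25 weeks, with 24.3% and 49.4% in the bivalent state M and 11.2% and 18.8% in N. By library, the wild-type T shares at 25 weeks were 2.09%, 1.37% and 1.46% and the βEedKO shares 2.82% and 3.46%, so these did not overlap. The S shares were 14.7% to 17.1% in wild type and 17.1% to 18.2% in βEedKO, and the U shares overlapped. Heterozygous islets stood at 1.46% in T at both ages. In T, 42 of 1098 genes reached 1 CPM in βEedKO at 25 weeks. The order of S and U changed among genes with at least 50% unique words. In wild type at 8 weeks 16.1% of 31 such U genes reached 1 CPM, against 10.5% of 200 in S and 1.74% of 861 in T. In βEedKO at 25 weeks the shares were 16.1% in U, 14.5% in S and 3.95% in T. Each of these U shares rests on 5 genes.

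**Figure D3:**
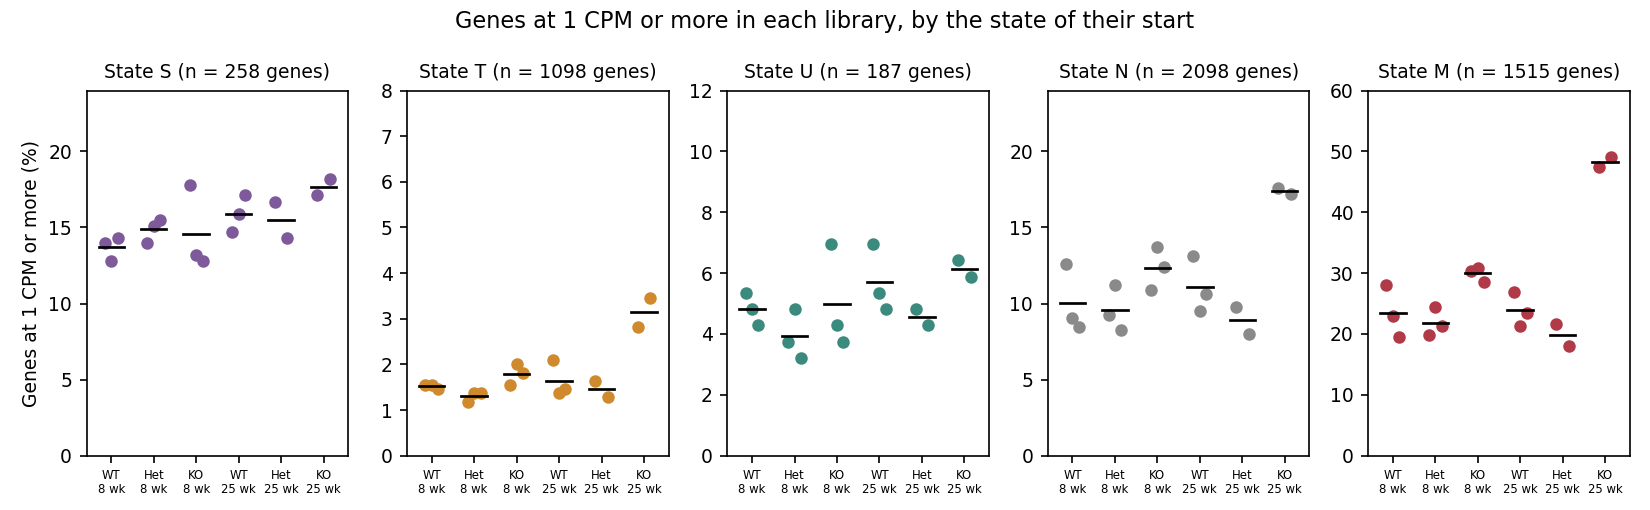
Percent of counted genes at 1 CPM or more in each library (points) and the mean over libraries (lines), for genes that start in S, T, U and the Polycomb states N and M, with a y axis of its own for each state. The 2 βEedKO libraries at 25 weeks stand clear of the others in M, N and T, at 2.82% and 3.46% in T, and do not in U.

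The genes that crossed 1 CPM did not do so evenly in the βEedKO libraries. At 25 weeks 35 members were under 1 CPM on the wild-type mean and at or above it in βEedKO (10 in S, 23 in T, 2 in U), and 4 went the other way. Only 16 of the 35 reached 1 CPM in both βEedKO libraries. Another 15 did so in replicate 3 alone and 4 in replicate 2 alone. The 35 included 6 α-defensin genes and 6 clustered protocadherins. Of 1472 members under 1 CPM in wild type at 25 weeks, the 16 made up 1.09%, against 8.36% of 12411 such genes in all states, 27.1% of 1147 in M and 4.56% of 1862 in N. By letter the share was 2.76% of 217 in S, 0.835% of 1078 in T and 0.565% of 177 in U. Low shares also stood in P (2.2%), Q (1.75%) and W (0.948%). Heterozygous libraries at 25 weeks carried 1 such member (0.0679%, against 0.612% in all states), the protocadherin Pcdha12. At 8 weeks 2 of 1482 members (0.135%, against 1.55% in all states) reached 1 CPM in all 3 βEedKO libraries.

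The receptors had next to no reads in any genotype. Of 562 counted olfactory and vomeronasal members 521 (92.7%) had no read in any library, 38 had 1 to 10 reads over all 16, and 1 had more than 100. Vmn1r115 (chromosome 7 from 20844098 to 20844985, state U in the deposited list and S in the study's legend), an example locus of the study, had 0 reads in every library, with 22.62% unique words. The exception was Vmn1r58, whose T start window is printed above. It measured 0.38, 0.872 and 0.9 CPM in wild type and 2.8, 1.2 and 0.605 CPM in βEedKO at 8 weeks. At 25 weeks the values were 0.872, 1.13 and 0.619 CPM against 1.37 and 1.05 CPM. The groups overlapped at both ages, and its change passed no test (adjusted p = 0.768 and 0.813, edgeR quasi-likelihood test). The olfactory receptor highest in βEedKO at 25 weeks, Olfr212, averaged 0.116 CPM there and 0.127 CPM in wild type. Tas2r104 and Mup11 had 0 reads in all libraries. Secretoglobins had reads for 2 of 28 genes and type 2 vomeronasal receptors for 10 of 89, the latter summing to at most 0.152 CPM in a βEedKO library of 25 weeks. Low counts were not confined to receptors that start in S, T or U. In wild type at 8 weeks 4 of 727 counted olfactory receptors outside these states reached 1 CPM. Of the type 1 and type 2 vomeronasal receptors outside them, 0 of 55 and 0 of 32 did.

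Of the 1543 counted members 125 passed the filter on low counts (63 in S, 42 in T, 20 in U) and were tested with all other genes, 18685 in total. At 25 weeks 7 were higher in βEedKO than in wild type and 0 were lower, while 4.58% of all tested genes were higher and 2.02% lower. The 7 are 5.6% of the tested members, close to that background. At an unadjusted p under 0.05 there were 18 higher and 2 lower members, against 2405 and 1386 of the 18685 genes. DESeq2 gave 10 higher and 2 lower members, against 1338 and 711 of all genes. The 7 were 5 genes of T (Pcdhb5, Pcdhb8, Pcdhb9, Pcdhb14, Prss3) and 2 of S (Nespas, Gm43549), and none of U. With the replicate number as a block the count was 3 (Prss3, Gm43549 and Pglyrp1, which is not among the 7), and Amy2a2 was called lower. It fell to 1 without either βEedKO library or without wild-type replicate 3 or 4 of that age. Members can pass the filter through the group in which they are high, so no median over the tested members is given.

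Clustered β-protocadherins, neuronal adhesion proteins of which each cell uses a few, gave 4 of the 7. Pcdhb5 measured 0, 0.301 and 0.387 CPM in the wild-type libraries at 25 weeks and 5.02 and 4.27 CPM in βEedKO. The log2 fold change was 4.04 ± 0.80 (SE; adjusted p = 0.0146). Pcdhb8 measured 0, 0.451 and 0.309 CPM against 5.55 and 3.75 CPM (3.90 ± 0.75, adjusted p = 0.0128). Both were clear of all wild-type and heterozygous libraries. Pcdhb9 measured 0.436, 0.451 and 0.0773 CPM against 3.73 and 2.38 CPM (3.23 ± 0.69, adjusted p = 0.0207). Pcdhb14 was already transcribed in wild type, with 3.27, 4.66 and 4.79 CPM, and reached 12.6 and 16.2 CPM (1.69 ± 0.35, adjusted p = 0.0188), with heterozygous values between, at 8.06 and 6.88 CPM. At 8 weeks none of the 4 passed the test, with log2 fold changes of 0.74, 0.59, 0.13 and 0.17. With the replicate block none of the 4 passed at 25 weeks (adjusted p = 0.0642, 0.0925, 0.103 and 0.0533 for Pcdhb5, Pcdhb8, Pcdhb9 and Pcdhb14). Heterozygous values at 25 weeks were at most 0.933 CPM for Pcdhb5, Pcdhb8 and Pcdhb9.

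Genes of the cluster that start in other states were called as well. Of the 22 β-protocadherins, 9 start in S or T, and 4 of these 9 were called higher. Of the other 13, which start in L, M, N or K, 7 were called higher. The median log2 fold change was 1.69 among the 9 and 2.52 among the 13. All 4 called members start in T. The fifth T gene, Pcdhb15, measured 0.436 to 0.619 CPM in wild type and 1.82 and 2.46 CPM in βEedKO (adjusted p = 0.208). The 4 that start in S had log2 fold changes of 0.03 to 1.1, and 0 of them passed. Of these, Pcdhb22 measured 8.93, 6.39 and 6.34 CPM against 6.99 and 8.22 CPM (log2 fold change 0.03, adjusted p = 0.974). Of the α and γ protocadherins that start in S or U, 4 of each, 3 and 4 were tested, and none is among the 7.

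**Figure D4:**
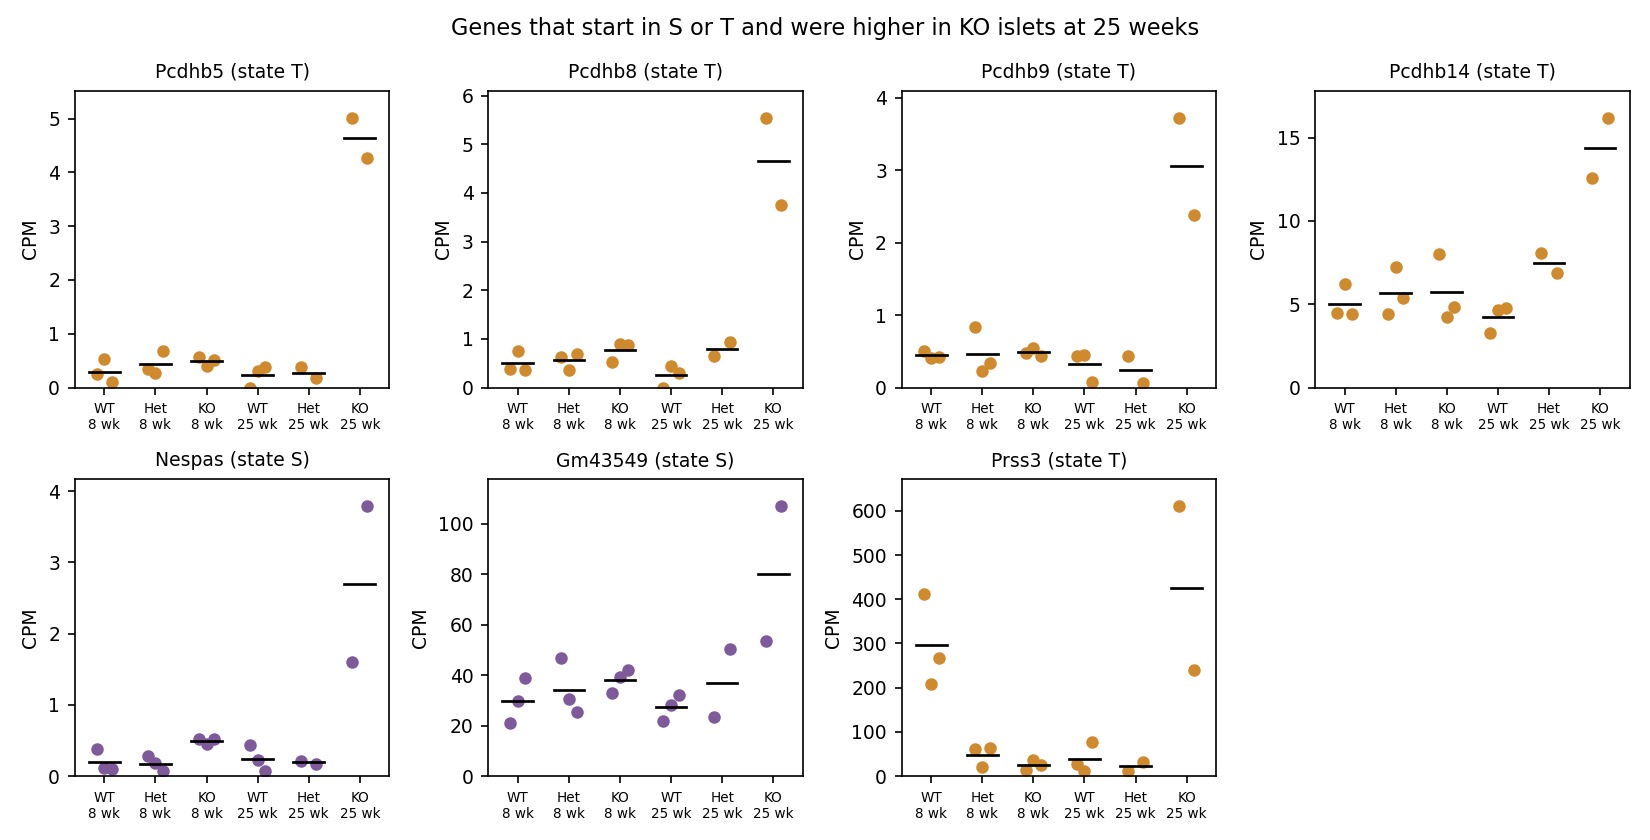
CPM in each library (points) and group means (lines) of the 7 genes called higher in βEedKO at 25 weeks, in the 6 groups, coloured by state. In 6 panels the 2 βEedKO libraries at 25 weeks lie above all other libraries, and in the Prss3 panel the wild-type libraries at 8 weeks, at 209 to 413 CPM, share their range.

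Nespas (chromosome 2 from 174281237 to 174295436) is an imprinted antisense RNA of the Gnas locus. It starts in S, with N in the next bin and the bivalent state M as the main letter of its body. It measured 0.436, 0.226 and 0.0773 CPM in wild type at 25 weeks and 1.6 and 3.79 CPM in βEedKO, so the groups did not overlap (log2 fold change 3.55 ± 0.81, adjusted p = 0.029, and 0.14 with the replicate block). At 8 weeks the values were 0.106 to 0.38 CPM and 0.451 to 0.521 CPM (adjusted p = 0.75). Gnas, the gene on the opposite strand, also rose at 25 weeks, from 55.9 to 131 CPM (adjusted p = 0.0233). Since the counting is not stated to use strand, reads of both cannot be told apart. Gm43549 (chromosome 3 from 55578105 to 55582730), a long intergenic RNA of unknown role, starts in S and had 6.87% unique words. It measured 22, 28.3 and 32.2 CPM against 53.4 and 107 CPM (1.48 ± 0.34, adjusted p = 0.028). Its reads may come from copies elsewhere, which was not tested. Mkrn3, an imprinted gene that starts in U, was under the filter, with 0, 0 and 0.0773 CPM in wild type and 0.532 and 0.725 CPM in βEedKO.

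Genes of the exocrine pancreas had the highest read counts among the genes that start in T and U. They are acinar cell products, and acinar cells adhere to isolated islets in varying number. The summed level of 7 acinar markers, 1 of which (Amy2a5) itself starts in T, ran from 10400 to 332000 CPM over the 16 libraries, both ends in βEedKO at 25 weeks (replicate 3 and replicate 2). The trypsinogen Try4 (chromosome 6 from 41302269 to 41305532) was highest, at 15300 CPM, in that replicate 2 and in wild-type replicate 1 at 8 weeks, where the markers summed to 152000 CPM. It was lowest, at 666 CPM, in βEedKO replicate 3. Try5 ran from 882 CPM in the same library to 18700 CPM in replicate 2. Reg2 (state U), a secreted protein of the Reg family, ran from 12.5 to 2180 CPM and Reg3b (state T) from 3.38 to 311 CPM. None of these 4 passed the test at either age (lowest adjusted p = 0.471), and without βEedKO replicate 2 the 25-week fold changes of Try4, Try5 and Reg2 turned negative. The part of acinar cells in these values was not tested.

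Prss3 (chromosome 6 from 41373814 to 41377678), a trypsinogen near Try4 and Try5, had opposite differences between genotypes at the 2 ages. In wild type it measured 413, 209 and 267 CPM at 8 weeks and 28.3, 10.5 and 76.5 CPM at 25 weeks. In βEedKO it measured 14.4, 35.6 and 24.2 CPM at 8 weeks and 611 and 240 CPM at 25 weeks. Heterozygous libraries lay between 11.7 and 63.6 CPM at both ages. So the βEedKO values were below all wild-type values at 8 weeks and above them at 25 weeks. The log2 fold change was -3.57 ± 0.70 at 8 weeks (adjusted p = 0.0728) and 3.42 ± 0.73 at 25 weeks (adjusted p = 0.0214). The difference of 6.99 ± 1.01 between the ages passed the test (adjusted p = 0.0273), the 1 member to do so, among 0.198% of all genes tested. The difference was lost with the replicate block, under which 0 members passed. The 2 highest Prss3 values, 611 and 413 CPM, lay in libraries with acinar markers at 332000 and 152000 CPM, and the values of 240 and 267 CPM in libraries with markers at 10400 and 22800 CPM. The part of acinar cells in the Prss3 values was not tested. Prss3 had 51.28% unique words, Try4 50.0% and Try5 59.21%, so reads may be divided among these copies.

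**Figure D5:**
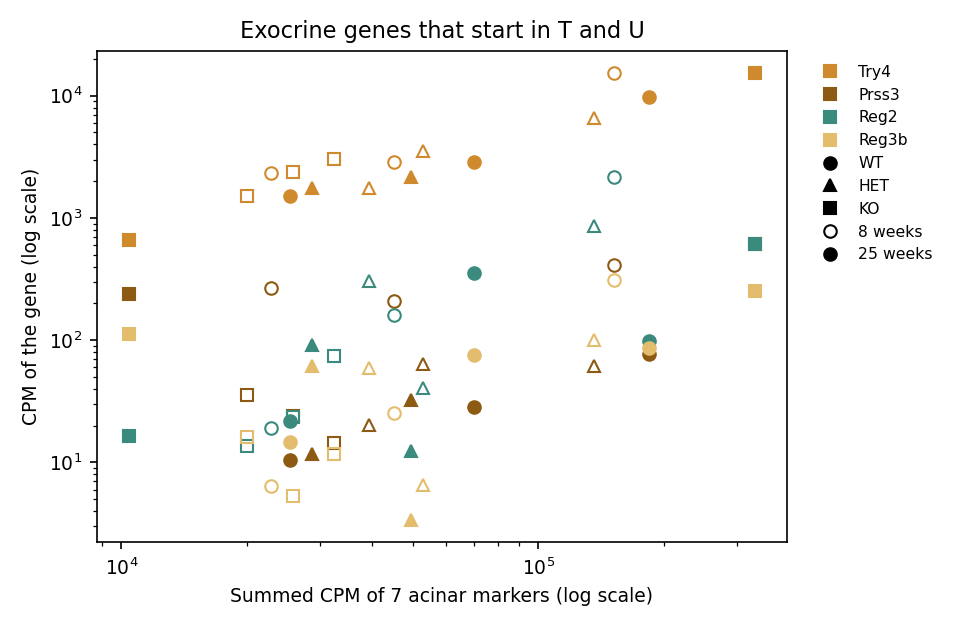
CPM of Try4, Prss3, Reg2 and Reg3b in each of the 16 libraries (log scale) against the summed CPM of 7 acinar markers (log scale), with symbol shape for genotype, open symbols for 8 weeks and filled ones for 25 weeks. Try4 runs from 666 to 15300 CPM and Prss3 from 10.5 to 611 CPM over markers of 10400 to 332000 CPM.

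The near-identical amylase genes differed by library. Amy2a2, Amy2a3 and Amy2a4 each start in T and had 11.44% unique words. Amy2a2 stood at 2380 CPM in wild-type replicate 2 at 25 weeks and at 0.0403 to 45.9 CPM in the other 15 libraries. Amy2a3 stood at 409 CPM in wild-type replicate 4 of that age and at 157 CPM in βEedKO replicate 1 at 8 weeks, and was at 0 in 5 libraries. Amy2a4 stood at 37.8 CPM in heterozygous replicate 1 at 25 weeks and at 0 in 11. A different copy thus led in different libraries, and the level of no single copy is read here.

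Products of intestinal and immune cells that start in T appeared in single libraries. The 26 defensin members summed to 47.1 CPM in βEedKO replicate 3 at 25 weeks, 2.21 CPM in βEedKO replicate 4 at 8 weeks and 1.33 CPM in wild-type replicate 1 at 8 weeks, and to at most 0.152 CPM in the other 13 libraries. Defa30 alone measured 19.4 CPM in the first of these, 1.3 and 0.571 CPM in the next, and 0 in the rest, with an adjusted p of 0.161 at 25 weeks. Cyp3a11 (state T), a drug-oxidising enzyme of liver and gut, stood at 29.1, 41.3 and 42.5 CPM in the same 3 libraries and at 0 to 8.06 CPM elsewhere. Lyz1, the lysozyme of intestinal Paneth cells, stood at 181, 2.51 and 7.35 CPM in them. At 25 weeks it also stood at 11 CPM in βEedKO replicate 2 and at 3.7 CPM in wild-type replicate 2. Whether tissue other than islets was carried into these libraries was not tested. Without replicate 3 the defensins were at 0.152 CPM in βEedKO at 25 weeks.

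Immunoglobulin V segments, nearly all in T, had reads in more libraries. The 106 Ighv segments summed to 68.3 and 175 CPM in βEedKO at 25 weeks and 27.9, 7.82 and 3.32 CPM in wild type, and to 62.3 CPM in βEedKO replicate 4 at 8 weeks. The 2 heterozygous libraries at 25 weeks had 0.163 and 0 CPM. The 47 Igkv segments summed to 90.1 and 165 CPM against 41, 5.79 and 3.02 CPM. Jchain, which plasma cells use to join antibodies, stood at 108 and 475 CPM against 60.8, 5.71 and 2.16 CPM, while the summed lymphocyte markers stood at 26.4 and 13.1 CPM against 40.7, 21.7 and 23.1 CPM. These segments were outside the gene types tested as members. Among the T genes that reached 1 CPM in both βEedKO libraries, Clec4n and Cd209a are lectins of macrophages and dendritic cells. Clec4n measured 0.218, 0.0752 and 0.232 CPM against 2.13 and 2.46 CPM (adjusted p = 0.159), and Cd209a 0.654, 0 and 0 CPM against 2.66 and 1.01 CPM (adjusted p = 0.276). The summed macrophage markers stood at 102, 65.7 and 50.1 CPM against 314 and 71.9 CPM. The part of immune cells in these values was not tested.

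A minority of members was expressed in every group, most of them in S. Aqr (chromosome 2 from 114101170 to 114187024), a helicase of the spliceosome, had the highest CPM among S genes with unique sequence, at 55.4 to 71.6 CPM in wild type and 45.3 to 58.5 CPM in βEedKO at 8 weeks. Its annotated 5′ end lies in S, but another annotated transcript starts in an active state. That was so for 10 of the 111 members that reached 1 CPM in any group. Gm26880 and Gm29562, the other S genes with the most reads, had 13.39% and 0.0% unique words. In U, Sp100 measured 6.32, 2.11 and 3.94 CPM in wild type at 25 weeks and 14 and 11.6 CPM in βEedKO, without overlap, and missed the threshold (log2 fold change 1.62 ± 0.52, adjusted p = 0.0975). Zfp979 measured 12.2, 4.44 and 5.18 CPM against 4.26 and 2.94 CPM (adjusted p = 0.271), and Zfp992 4.64 to 5.23 CPM against 4.33 and 3.79 CPM (adjusted p = 0.645). Zfp990, at 9.37, 0 and 0 CPM in wild type and 4.87 and 5.08 CPM in βEedKO, was present or absent by library in each genotype.

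Genes of the germline, many of which DNA methylation is known to silence, were examined as a list. Of 30 counted genes 12 were tested and 0 were called at either age by edgeR or DESeq2. At each age 1 had an unadjusted edgeR p under 0.05, against 3791 of 18685 genes at 25 weeks and 1470 at 8 weeks. Over all tested genes edgeR called 4.58% higher and 2.02% lower at 25 weeks, and 0.428% and 0.00535% at 8 weeks. Genes can pass the filter through the group in which they are high, so no median over the 12 is given. Of the list, 4 start in S. Rpl10l had 0 reads in all libraries. Asz1, with the CpG-rich window above, had 8 reads in all, and stood at 0.304 and 0.0403 CPM in βEedKO at 25 weeks. Sycp1, a protein of the meiotic synaptonemal complex, measured 1.74, 0.451 and 0.464 CPM against 0.152 and 0.846 CPM (adjusted p = 0.776). Brdt, a bromodomain protein of the testis, had another transcript start in an active state and measured 5.76 CPM in wild type and 9.25 CPM in βEedKO at 25 weeks (adjusted p = 0.286).

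Writers and readers of H3K9 methylation did not pass the test. Of 33 counted genes of the heterochromatin, DNA methylation and PRC2 machinery 32 were tested and 0 were called at either age by edgeR. That compares with 4.58% of all tested genes higher and 2.02% lower at 25 weeks, and 0.428% and 0.00535% at 8 weeks. At each age 2 of the 32 had an unadjusted p under 0.05, against 3791 and 1470 of all 18685 genes. DESeq2 called 0 at 25 weeks and 1 at 8 weeks, against 2049 and 378 of all genes. The median log2 fold change of the 32 was -0.18 at 25 weeks, against 0.03 over all tested genes. Over tested genes that start in the active state A it was -0.19. Setdb1 stood at 36.4 ± 4.79 CPM in wild type and 33.9 ± 3.58 CPM in βEedKO at 25 weeks (SD, n = 3 and 2; adjusted p = 0.735), Cbx5, a reader of the mark, at 83.1 ± 2.7 and 75.1 ± 9.15 CPM (adjusted p = 0.782), and Trim28, the co-repressor that recruits it, at 90.8 ± 5.66 and 103 ± 13 CPM (adjusted p = 0.763). Eed itself, whose RNA also comes from islet cells that keep the gene, measured 23.8, 33.1 and 31.2 CPM in wild type and 14.9, 13.4 and 14.8 CPM in βEedKO at 8 weeks. At 25 weeks it measured 28.3, 22 and 19.3 CPM against 15.6 and 14.2 CPM. All βEedKO values lay below all wild-type values, and the change missed the threshold at both ages (adjusted p = 0.0881 and 0.142).

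At 8 weeks no member passed the test in either direction, while 0.428% of all tested genes were higher and 0.00535% lower in βEedKO. At an unadjusted p under 0.05 there were 10 higher and 3 lower members, against 1093 and 377 of the 18685 genes. DESeq2 called 1 member in each direction, against 350 higher and 28 lower of all genes. In heterozygous islets no member and no other gene was called at either age by edgeR (0.0% of 18828 genes at 25 weeks and at 8 weeks). At an unadjusted p under 0.05 there were 4 of 131 members at 25 weeks and 14 at 8 weeks, against 210 and 2743 of the 18828 genes. DESeq2 called 0 and 4 members, against 2 and 400 of all genes.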

How the data were processed

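RNA-seq libraries of whole islets were sequenced by the authors as 2 x 50 bp reads, aligned with TopHat2 2.0.13 to GRCm38 and counted per gene with featureCounts (Subread 1.5.0-p1) on Gencode M9 models, and the deposited counts are whole, unnormalised reads. The strand setting is not given in the sources used here. The deposited segment list was made by the authors with EpicSeg from wild-type islet ChIP-seq and DNA methylation in 200 bp bins with replicates averaged. Start sites came from Gencode M21, to which 47224 of 47937 counted genes matched by identifier. Counts were filtered on low values, scaled with TMM and tested with edgeR 4.0.16 (R 4.3.3) by the quasi-likelihood test in 1 fit of 4 groups and 11 libraries, or 6 groups and 16 libraries for heterozygotes, with Benjamini-Hochberg adjustment over all genes at 0.05. The scripts were tested on simulated data with 200 changed genes. DESeq2 1.42.0, other scalings, no filter, a replicate block and leaving out each library were the alternatives. The study's methods call the libraries biological replicates, no pair held the same counts within sampling noise, and p-values measure the spread between them. Deviations from the group means correlated in all 4 same-numbered pairs of wild-type and βEedKO libraries (r = 0.457 and 0.163 at 8 weeks, 0.176 and 0.255 at 25 weeks), a pairing read from the data and not stated in the labels, so values with the replicate block stand beside calls they change. At 8 weeks wild-type 3 and βEedKO 5 correlated at 0.45, and wild-type 4 and βEedKO 5 at 0.329, above the same-numbered 0.163. At 25 weeks the deviations of the 2 βEedKO libraries mirror each other. Each r there thus recurs with the opposite sign for the other βEedKO library, so these values cannot settle whether the numbers mark pairs. Intervals and floors (3 reads) cover counting error only.

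The members and gene lists were chosen with earlier results of these data known, and 6 families (exocrine gland-secreted peptides, oocyte homeobox, Mas-related receptors, trypsinogens, pancreatic amylases, Reg family) were added after the members were seen. Named genes were, at each age, the called members with a group mean of at least 0.5 CPM (the 12 with the largest rise and the 6 with the largest fall), the 4 of each state with the highest CPM in wild type at 8 weeks, Vmn1r115, the highest member in βEedKO at 25 weeks of each family with 10 or more members, called machinery genes, and Setdb1, Trim28, Suv39h1, Suv39h2, Cbx5 and Eed. Other genes named were chosen after their values were seen. The sex chromosomes have no state in the list. The single-cell barcode list was not used.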

Additional observations from a re-analysis of the deposited data

Results flagged for a closer look

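Prss3, the trypsinogen that starts in T, is the 1 member whose βEedKO effect differed between the ages by a test of the difference itself, an interaction term in the edgeR fit. Its log2 fold change at 25 weeks exceeded that at 8 weeks by 6.99 ± 1.01 (SE; adjusted p = 0.0273). All 3 βEedKO libraries were below all 3 wild-type libraries at 8 weeks, and both were above all 3 at 25 weeks. No member kept this call with the replicate block or without any 1 of 8 of the 11 libraries.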

How the results depend on the processing

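The count of 7 members higher in βEedKO at 25 weeks was 12 with no filter on low counts and ran from 1 to 10 when 1 library was left out, with 1 without βEedKO replicate 2 or 3 or wild-type replicate 3 or 4 of that age. Members lower at 25 weeks, 0 in the report, were 2 with DESeq2 and 0 to 1 on leaving out a library. At 8 weeks DESeq2 gave 1 higher, and library size alone, no filter and DESeq2 each gave 1 lower, with 0 to 1 lower on leaving out a library. The 1 member with a different effect at the ages was 0 to 1 on leaving out a library. In heterozygotes at 8 weeks DESeq2 called 4 members, against 400 of all genes, and leaving out a library gave 0 to 2 members.

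With the replicate block 3 members were higher and 1 lower at 25 weeks, and 0 differed between the ages. The pairing changed no other count of called members, and its effect on genes that are not members was not examined.

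The share of members at 1 CPM moved with the threshold. At 0.5 CPM it was 5.57% in wild type, 5.51% in heterozygotes and 5.9% in βEedKO at 8 weeks, and 5.9%, 5.57% and 7.84% at 25 weeks. At 2 CPM it was 3.31%, 2.72% and 3.43%, and 3.24%, 2.85% and 4.8%. With all gene types it was 3.7% and 3.46% in wild type and heterozygotes at 8 weeks, and 3.89%, 3.66% and 5.9% at 25 weeks. A further 2 choices were made after seeing the data. In wild type, heterozygotes and βEedKO, genes with at least 50% unique words gave 3.75%, 3.3% and 4.3% at 8 weeks. At 25 weeks they gave 4.21%, 3.75% and 6.23%. Genes with no active start elsewhere gave 3.46%, 3.33% and 4.25% at 8 weeks, then 4.05%, 3.79% and 6.01% at 25 weeks. The median width was 2000 bp with adjacent segments merged and 2200 bp over breaks of up to 1000 bp. Starts numbered 1654 with both flanking bins in S, T or U, 2138 with any transcript start and 5664 with all gene types.

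The 25-week log2 fold change of Gm26880 turned to 0.121 with the replicate block, 0.468 without βEedKO replicate 3 and 0.276 without wild-type replicate 4, within -1.27 to 0.468 over all libraries left out. Without βEedKO replicate 2, those of Try4, Try5 and Reg2 turned to -2.89, -1.91 and -3.33, and their highest values on leaving out a library were 1.81, 2.67 and 2.35. The cause was not tested. Depth limits the silent genes to under 0.121 to 0.654 CPM per library.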
